A study of Homo sapiens with 8 samples.

Results

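Protein phosphatase 2A (PP2A) removes phosphate from serine and threonine residues and works as a trimer. A catalytic C subunit (PPP2CA or PPP2CB) is held by a scaffold A subunit (PPP2R1A or PPP2R1B), and 1 of several families of regulatory B subunits brings the trimer to its substrates. The B55 family (PPP2R2A, PPP2R2B, PPP2R2C and PPP2R2D) is known for reversing phosphorylation by cyclin-dependent kinases as cells leave mitosis. IER2, IER5 and IER5L, the IER family, are described as adapters that bind PP2A trimers holding a B55 subunit. The transcripts of these 8 subunit genes were followed in PC3 cells after IER5L silencing. They were chosen by name and family, with earlier results of these data known. They make up 8 of the 58051 genes in the table and 8 of the 16959 genes with enough reads to test.

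PC3 is an established human prostate cancer cell line grown from a bone metastasis. The control cells were transduced by lentivirus with a scrambled hairpin without a human target (shScramble), and the silenced cells carried the sh2 IER5L hairpin (shIER5L). Both were kept under puromycin selection, and each condition had 4 biological replicates by the sample titles. The paper's methods speak of 4 plates and do not say whether they came from separate transductions. The spread between replicates may therefore leave out differences between transductions. The question put to the subunits was whether transcript levels of the enzyme moved when one of its proposed adapters was lowered. Because the silenced cells carried 1 hairpin, effects of that hairpin and of IER5L loss cannot be told apart, and in bulk RNA fewer cells of a kind and less RNA per cell cannot be told apart either.

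Counts on genes summed to between 21512128 and 24662190 per sample, as reads of a pair counted one by one, so independent fragments are fewer than the counts. Values below are CPM (counts relative to the TMM-scaled library size), and levels compared between genes are CPM per kb of the exon length deposited with the table. Replicates had log2 CPM correlations of 0.988 to 0.992, and every replicate pair differed by more than sampling noise. The epithelial genes KRT18 (382 to 425 CPM), KRT8 (40.3 to 63.1 CPM) and EPCAM (25.7 to 30.8 CPM) were present in every sample. KLK3, which encodes prostate-specific antigen and is known to be silent in PC3 cells, had 0 counts in all of them. Of genes of other cell types, PTPRC (leukocytes) had 0 to 4 counts per sample, ALB (hepatocytes) 0 to 7 and COL1A1 (fibroblasts) 0 to 14. PECAM1 (endothelium) was present in every sample, with 174 to 245 counts (7.24 to 10.4 CPM). IER5L itself had 3.91, 6.51, 5.62 and 3.23 CPM in the shScramble samples and 2.73, 3.03, 2.04 and 1.32 CPM in the shIER5L samples. The conditions did not overlap, the log2 fold change was -1.08 (SE 0.25, adjusted p = 0.0212 by edgeR's quasi-likelihood test, Benjamini-Hochberg over all genes tested), and IER5L rested on 29 to 154 counts per sample. This call was lost without shScramble replicate 2 or 3 or shIER5L replicate 3, with an adjusted p of up to 0.0937.

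The hairpin is shown first, because short stretches of it can also match 3′ UTRs of genes other than its target. The listed sequence, with capitals on the 8 bases that hold the heptamers ACATCTC and CATCTCA, is given 5′ to 3′.
sh2 IER5L: gacgcgtccaACATCTCAaac
Both heptamers were picked with earlier results of these data known, and since the start of the hairpin's guide strand in the cells is not known, they may or may not match its seed. In the longest annotated 3′ UTR of each gene (GENCODE v44, hg38, transcript strand only), CATCTCA was found in 3 of the 8 subunit genes and ACATCTC in 0. Either heptamer was present in 37.5% of the subunit genes and in 21.95% of the 18940 genes with an annotated 3′ UTR. PPP2CA and PPP2R1B held 1 site each and PPP2R2B held 3, the most of the 8, which are printed with 11 bases on each side and the heptamer in capitals, all on the minus strand.
PPP2R2B at chr5:146588136-146588142: ctcgccttaggCATCTCAagtaaagtggc
PPP2R2B at chr5:146585706-146585712: tttccatgcctCATCTCAttatctcctct
PPP2R2B at chr5:146584025-146584031: tcctgcttgccCATCTCAagccctctcag
The 3′ UTR of PPP2R2B is 9205 bases long, beside 3737 for PPP2CA and 3719 for PPP2R1B. Fitted log2 fold changes of PPP2CA, PPP2R1B and PPP2R2B were 0.12, 0.04 and 0.18, so none of the fits was below 0. A match of 7 letters is a description of the sequence and not of hairpin binding.

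The 8 subunit genes differed widely in level and little between conditions. Per kb of deposited exon length PPP2CA had the highest level. It ranked 4 with the length of the transcript that has the longest coding sequence. With either length PPP2R2B had the lowest level, and the scaffold and catalytic genes all stood above the 4 B55 genes. No subunit gene passed the test (0 of 8 at an adjusted p under 0.05, against 3.93% of all genes tested, 2.46% higher and 1.46% lower in shIER5L). Of all genes tested, 0.79% passed with a log2 fold change of 0.5 or more in size as well, the size set in the study's methods, and again 0 of the 8 subunit genes. Of the 8, 0 had an unadjusted p under 0.05, against 16.5% of all genes tested. That count was also 0 with DESeq2, limma voom and the likelihood ratio test, but was 1 or 2 in 7 of the 19 other fits, for PPP2CA (p of at least 0.00624), PPP2CB (at least 0.0159) or PPP2R1A (at least 0.0147), all unadjusted p from edgeR. The conditions overlapped for every one of the 8, while 10.9% of all genes tested had conditions that did not overlap, 6.33% with shIER5L higher and 4.61% with shIER5L lower. The fitted value was above 0 for 7 of 8 genes, beside 50.6% of all genes tested, with a median log2 fold change of 0.084 over the 8, beside 0.002 over all genes tested, and PPP2R2C was below 0 without shIER5L replicate 4 (-0.02).

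**Figure D1:**
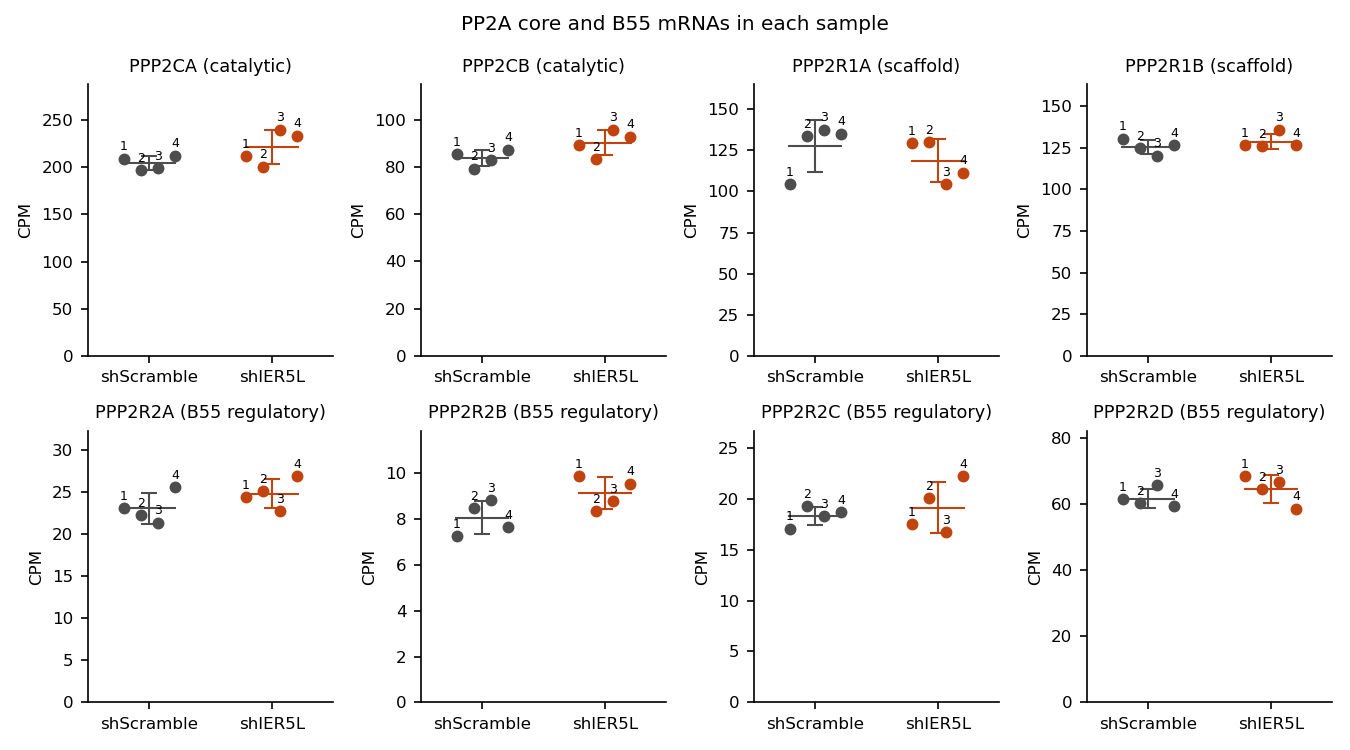
Level of each of the 8 subunit genes in CPM in the 4 shScramble and 4 shIER5L samples, with 1 point per sample and the mean and SD of each condition. The points of the conditions overlap in all 8 panels, and shScramble replicate 1 lies below the other shScramble samples for PPP2R1A.

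The catalytic subunits carry the active site, and PPP2CA and PPP2CB encode nearly identical proteins. PPP2CA (ENSG00000113575, chr5:134194334-134226142, minus strand, hg38) had 209.04, 196.67, 198.8 and 212.32 CPM in the shScramble samples and 211.62, 200.53, 239.68 and 233.36 CPM in the shIER5L samples. Replicates 3 and 4 of shIER5L were above every shScramble sample, and replicates 1 and 2 were among them. The log2 fold change was 0.12 (SE 0.06, adjusted p = 0.308), with a 95% interval from -0.001 to 0.23, the closest of the 8 to excluding 0. PPP2CB (ENSG00000104695, chromosome 8, minus strand) had 85.4, 79.4, 83.0 and 87.4 CPM in the shScramble samples and 89.3, 83.5, 95.8 and 92.9 CPM in the shIER5L samples. There 3 of the 4 shIER5L samples were above every shScramble sample, and the log2 fold change was 0.11 (SE 0.05, adjusted p = 0.343, 95% interval -0.01 to 0.23). Neither gene passed the test under any of the 19 other fits, in which the lowest adjusted p was 0.095 for PPP2CA, without shIER5L replicate 2, and 0.15 for PPP2CB, with the GC trend of each sample removed.

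The proportion of the catalytic genes to each other varied little from sample to sample. Per kb of deposited exon length, the ratio of PPP2CA to PPP2CB was 1.94 ± 0.03 (SD, n = 4) in shScramble and 1.95 ± 0.06 (SD, n = 4) in shIER5L. The size of this ratio rests on the length used. With the length of the transcript that has the longest coding sequence, PPP2CA was at 43.7 and PPP2CB at 44.7 CPM per kb, averaged over all samples. The reads could be assigned to one or the other: no stretch of 100 bases in the transcripts of one subunit gene occurs in those of another. Of the exon bases of PPP2CA, 9.22% are also covered by other annotated genes, among them ENSG00000273345 on the same strand, and reads there may be missing from its count.

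The scaffold subunits are rods of helical repeats that bind C at one end and a B subunit along their length. PPP2R1A (ENSG00000105568, chr19:52190039-52229533, plus strand) was the only subunit gene with a fitted value below 0. It had 104.35, 133.47, 137.51 and 135.06 CPM in the shScramble samples and 129.38, 129.78, 104.26 and 111.5 CPM in the shIER5L samples. In shScramble, replicate 1 stood low and the others were close to each other, while in shIER5L replicates 3 and 4 were low and replicates 1 and 2 high. The log2 fold change was -0.10 (SE 0.09, adjusted p = 0.608, 95% interval -0.29 to 0.08), and its spread within conditions was wider than that of 96.1% of genes of similar level. PPP2R1B (ENSG00000137713, chr11:111726908-111766427, minus strand) had 130.56, 124.72, 120.33 and 126.64 CPM in the shScramble samples and 126.6, 125.92, 135.84 and 126.66 CPM in the shIER5L samples. Of its shIER5L samples, replicate 3 was above the shScramble range and the others lay within it, with a log2 fold change of 0.04 (SE 0.05, adjusted p = 0.773, 95% interval -0.06 to 0.13).

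The ratio of PPP2R1A to PPP2R1B per kb was 0.722, 0.967, 1.03 and 0.964 in the shScramble samples and 0.923, 0.931, 0.694 and 0.795 in the shIER5L samples. The low ratios were those of shScramble replicate 1 and shIER5L replicates 3 and 4. PPP2R1A is the more GC-rich gene, with 60.4% G and C in its transcript with the longest coding sequence against 39.9% in PPP2CA. The balance of GC-rich over GC-poor genes, the median log2 deviation of genes with at least 60% GC less that of genes under 40%, was -0.11, 0.19, 0.25 and -0.09 in the shScramble samples and 0.16, 0.21, -0.22 and -0.34 in the shIER5L samples. Samples low in PPP2R1A were also low in this balance, although shScramble replicate 4 had a low balance and a high PPP2R1A. With the GC trend of each sample removed, an alternative added after seeing the data, PPP2R1A had 108.4, 125.7, 125.3 and 138.7 CPM in shScramble and 120.7, 119.2, 112.9 and 125.2 CPM in shIER5L. Its log2 fold change was then -0.06, that of PPP2CA was 0.06, and no subunit gene passed the test. Of the exon bases of PPP2R1A, 9.55% overlap a gene on the opposite strand, and counting did not use strand.

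**Figure D2:**
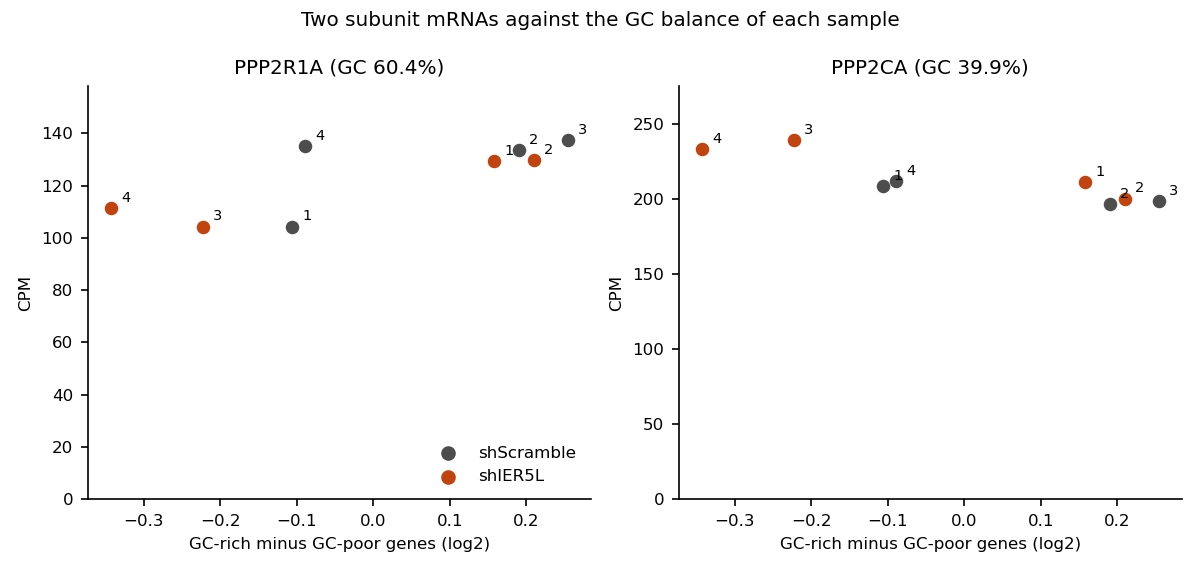
PPP2R1A and PPP2CA in CPM plotted against the balance of GC-rich over GC-poor genes (log2) in the 8 samples, with shScramble in grey, shIER5L in orange and the replicate number beside each point. The lowest PPP2R1A values, 104.35 and 104.26 CPM, are at balances of -0.11 and -0.22.

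The B55 subunits are propeller-shaped proteins that read the substrate. PPP2R2D (B55δ, ENSG00000175470, chr10:131900644-131959834, plus strand) had 61.3, 60.1, 65.5 and 59.2 CPM in the shScramble samples and 68.3, 64.4, 66.5 and 58.5 CPM in the shIER5L samples. Both the highest and the lowest sample were shIER5L, and the log2 fold change was 0.07 (SE 0.06, adjusted p = 0.661, 95% interval -0.06 to 0.19). PPP2R2A (B55α, ENSG00000221914, chromosome 8, plus strand), which lies in a region of 8p often lost in prostate cancer, had 23.1, 22.3, 21.4 and 25.6 CPM in the shScramble samples and 24.4, 25.2, 22.8 and 26.9 CPM in the shIER5L samples. Of the shIER5L samples 1 was above every shScramble sample and the others lay within their range, with a log2 fold change of 0.10 (SE 0.08, adjusted p = 0.592, 95% interval -0.07 to 0.28).

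The other B55 genes are known mainly from neurons and were detected here at lower levels. PPP2R2C (B55γ, ENSG00000074211, chr4:6320578-6563600, minus strand) had 17.1, 19.2, 18.3 and 18.6 CPM in the shScramble samples and 17.5, 20.04, 16.7 and 22.2 CPM in the shIER5L samples. Its shIER5L samples were the more scattered, on both sides of the shScramble range, and the log2 fold change was 0.06 (SE 0.10, adjusted p = 0.831, 95% interval -0.14 to 0.26), turning to -0.02 without shIER5L replicate 4. PPP2R2B (B55β, ENSG00000156475, chr5:146581146-147084784, minus strand) had 7.26, 8.498, 8.83 and 7.66 CPM in the shScramble samples and 9.88, 8.36, 8.78 and 9.55 CPM in the shIER5L samples. It had the largest fitted value of the 8, a log2 fold change of 0.18 (SE 0.11, adjusted p = 0.455), and the widest interval, from -0.05 to 0.41, on 154 to 224 counts per sample. None of the 8 intervals reached 0.5 in either direction, the bounds farthest from 0 being -0.29 for PPP2R1A and 0.41 for PPP2R2B.

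**Figure D3:**
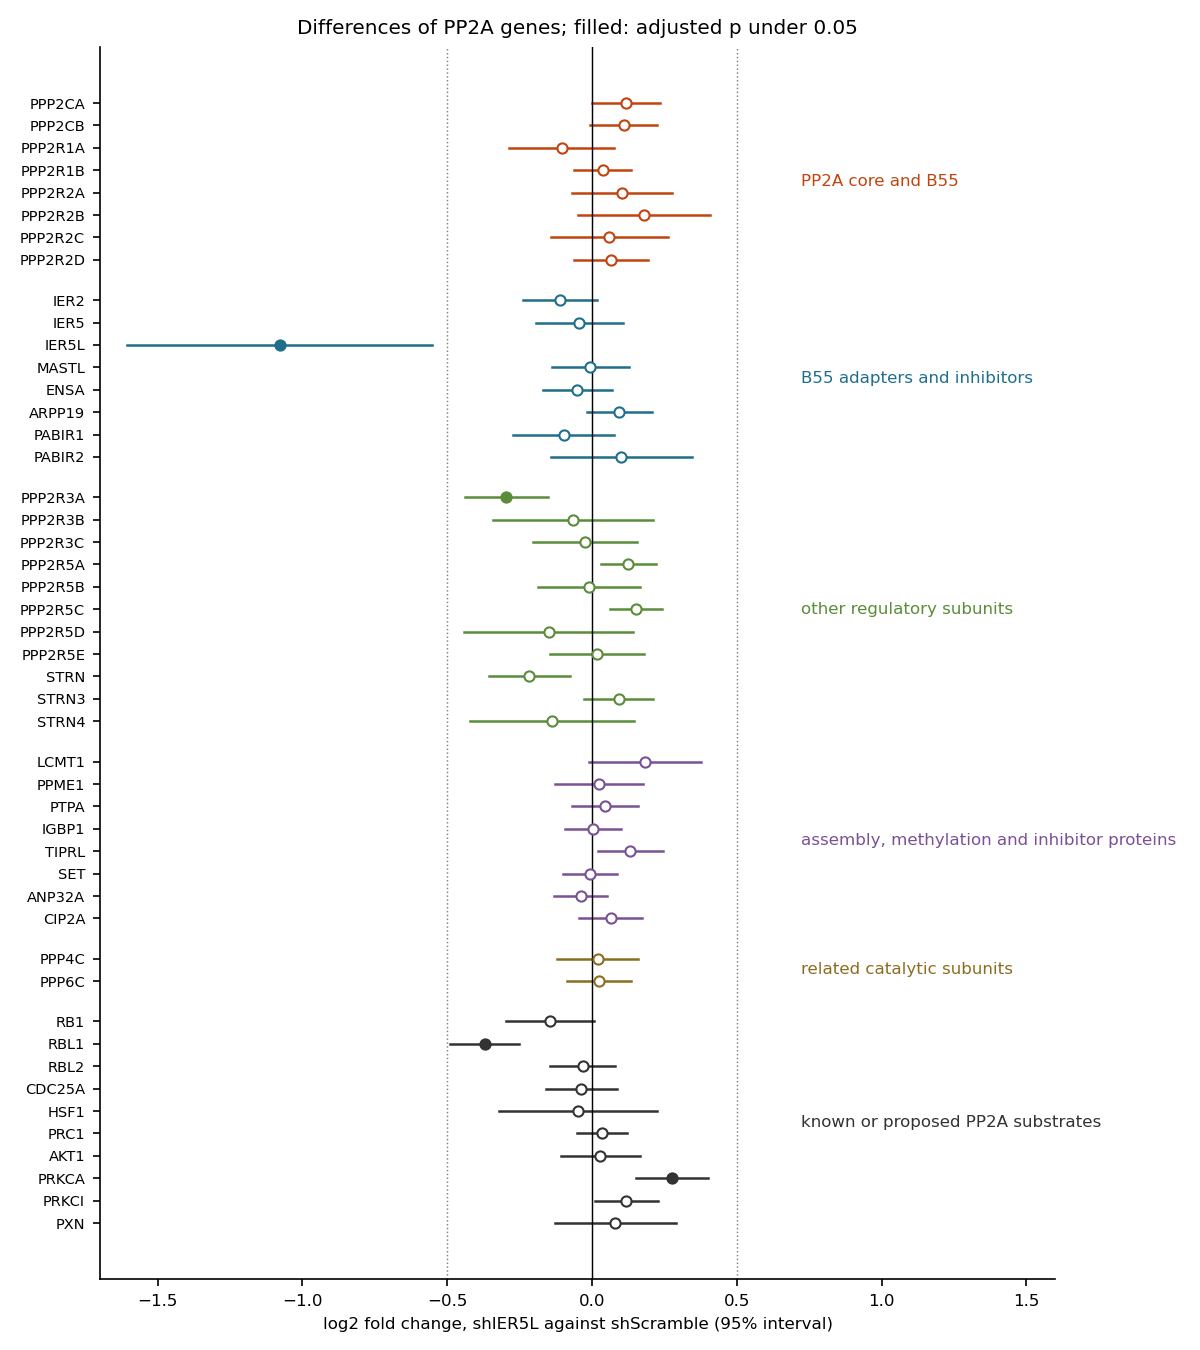
Log2 fold change (shIER5L against shScramble) with its 95% interval from edgeR's quasi-likelihood fit, for the 8 subunit genes at the top and the genes of 5 related lists below, filled where the adjusted p was under 0.05. The 8 subunit genes are all open circles, with intervals that include 0 and lie between -0.29 and 0.41, and the filled circles are IER5L, PPP2R3A, RBL1 and PRKCA (KSR1, with 11 to 20 counts per sample, and MAPT, which was not tested, are not drawn).

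Per kb of deposited exon length, averaged over the 8 samples, PPP2CA was at 37.6 ± 2.81 CPM per kb (SD), followed by PPP2CB at 19.3 ± 1.21, PPP2R1B at 18.9 ± 0.670 and PPP2R1A at 16.6 ± 1.89. PPP2CB and PPP2R1B overlapped in range, as did PPP2R1B and PPP2R1A, so that their order is not settled. PPP2R2D followed at 8.12 ± 0.474 CPM per kb, PPP2R2A at 3.04 ± 0.238, PPP2R2C at 2.03 ± 0.196 and PPP2R2B at 0.651 ± 0.0663, with no overlap between these neighbours. PPP2CA was at the 91.5th percentile of level among the genes tested and PPP2R2B at the 20.5th. The order rests on the length used. The other length was that of the annotated transcript with the longest coding sequence, which need not be the longest transcript. It was 1878 bases for PPP2R2A, whose longest annotated 3′ UTR alone is 2267 bases, and 5374 for PPP2R2D. With it, the scaffold genes came first (61.1 CPM per kb for PPP2R1B and 55.7 for PPP2R1A). PPP2CB (44.7) and PPP2CA (43.7) were close, and PPP2R2A (12.8) stood above PPP2R2D (11.7).

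Within the B55 family, PPP2R2D made up 58.7% of the summed level per kb (53.5 to 61.5% over the 8 samples), PPP2R2A 21.95% (19.6 to 24.2%), PPP2R2C 14.7% (13.01 to 17.1%) and PPP2R2B 4.70% (4.15 to 5.14%). With the transcript of the longest coding sequence as length, PPP2R2A made up 39.2% and PPP2R2D 36.1%. Which of the pair leads the family therefore cannot be read from these counts. The summed B55 level was 13.2, 13.3, 13.8 and 13.5 CPM per kb in the shScramble samples and 14.5, 14.3, 13.9 and 14.1 CPM per kb in the shIER5L samples. These sums did not overlap between conditions, as was so in the upward direction for 6.33% of single genes tested, and no test was made of a sum over the chosen genes. With the transcript of the longest coding sequence as length they did overlap, at 30.8 to 32.2 CPM per kb in shScramble and 32.1 to 34.4 in shIER5L. The separation was not particular to B55: with the deposited lengths the sums of the B56 family were higher in every shIER5L sample (58.4 ± 1.58 CPM per kb in shScramble and 62.7 ± 1.56 in shIER5L, SD, n = 4 each) and those of the B″ family lower (14.9 ± 0.347 and 13.8 ± 0.630). With the transcript of the longest coding sequence, the B56 sums still did not overlap and the B″ sums did. With the deposited lengths, the summed catalytic level was 54.6 ± 2.09 CPM per kb in shScramble and 59.1 ± 4.39 in shIER5L (SD, n = 4 each). The summed scaffold level was 35.8 ± 1.61 and 35.1 ± 1.27. The ratio of scaffold to catalytic level was then 0.657 ± 0.0432 in shScramble and 0.598 ± 0.0652 in shIER5L, a difference within the spread of the samples. With the transcript of the longest coding sequence as length, the scaffold sums stood above the catalytic sums instead. Scaffold and catalytic sums were 118.0 ± 5.47 and 85.0 ± 3.31 CPM per kb in shScramble. In shIER5L they were 115.5 ± 4.30 and 91.8 ± 6.45 (SD, n = 4 each). Which of the pair is higher therefore rests on the length used.

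**Figure D4:**
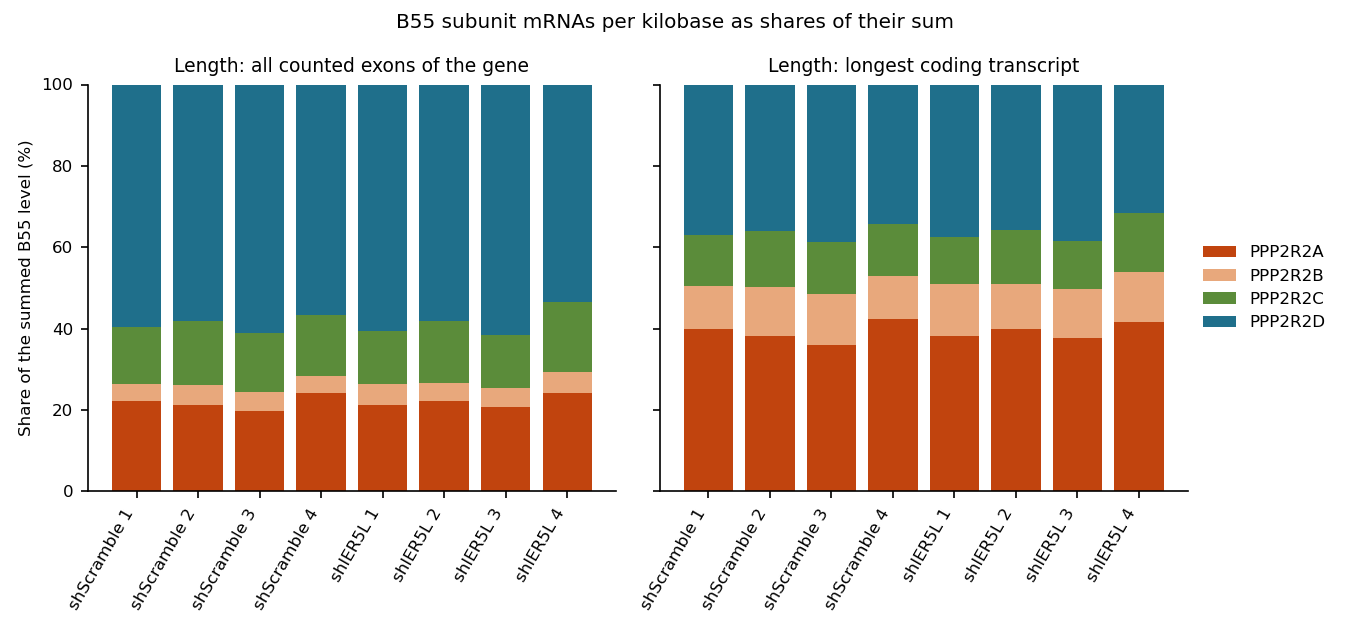
Share (%) of each B55 gene in the summed B55 level per kb in each of the 8 samples. The deposited exon length was used on the left. On the right the length was that of the transcript with the longest coding sequence (labelled longest coding transcript). PPP2R2D holds 53.5 to 61.5% of the sum on the left, and on the right PPP2R2A and PPP2R2D have average shares of 39.2% and 36.1%.

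The genes around the trimer were counted in 5 lists, chosen with earlier results of these data known. Of their 41 genes, 40 were tested and 4 passed, 1 higher and 3 lower in shIER5L, or 10% of those tested beside 3.93% of all genes. The 4 include IER5L, the target of the hairpin, and only the call of RBL1 held with each sample left out in turn. Among the 8 B55 adapters and inhibitors, 0 rose and 1 fell, which was IER5L itself, and the median log2 fold change was -0.05. The other adapters IER2 (-0.11, adjusted p = 0.388) and IER5 (-0.04, adjusted p = 0.833) did not pass. Per kb, IER2 was at 22.3 CPM in shScramble and 20.7 in shIER5L, and IER5 at 8.28 and 8.04, so that both stood above IER5L, at 1.78 ± 0.558 in shScramble and 0.841 ± 0.280 in shIER5L (SD, n = 4 each). The kinase MASTL, which switches on the B55 inhibitors ENSA and ARPP19 in mitosis, had a log2 fold change of -0.01 (adjusted p = 0.979). ENSA was at -0.05 (adjusted p = 0.731) and ARPP19 at 0.09 (adjusted p = 0.411), and the highest value of the list was 0.10, for PABIR2 (adjusted p = 0.741).

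The 11 other regulatory subunits belong to the B56, B″ and striatin families, which compete with B55 for the same core. In this list 0 rose and 1 fell, with a median log2 fold change of -0.02. PPP2R3A, a B″ subunit that binds calcium, had 36.1, 37.1, 34.4 and 39.1 CPM in the shScramble samples and 28.5, 30.7, 28.7 and 31.7 CPM in the shIER5L samples. Every shIER5L sample was below every shScramble sample, and the gene fell by 0.30 on the log2 scale (SE 0.07, adjusted p = 0.0209). The call was lost without shScramble replicate 2 or 4 or shIER5L replicate 1 or 3, with an adjusted p of up to 0.0807. The highest value of the list was PPP2R5C, a B56 subunit, with a log2 fold change of 0.15 (adjusted p = 0.0582). Summed per kb, the B55 family held 11.4% of the level of the 4 regulatory families (10.8 to 12.04% over the samples), B56 48.5 to 51.6%, striatins 25.5 to 28.2% and B″ 10.9 to 12.9%. With the transcript of the longest coding sequence as length the B55 family held 15.5% (14.6 to 16.3%) and striatins 16.2 to 18.0%.

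Among the 8 assembly factors, methylation enzymes and inhibitors, which load, cap or block the C subunit, 0 genes passed and the median was 0.03, from ANP32A at -0.04 to LCMT1, the C subunit methyltransferase, at 0.18 (adjusted p = 0.335). The related catalytic subunits PPP4C and PPP6C were both at 0.02. Of the 12 genes listed as known or proposed substrates, 11 were tested, 1 rose and 1 fell, with a median of -0.03. RBL1, the pocket protein p107 that B55 trimers dephosphorylate, had 95.1, 92.5, 96.4 and 96.6 CPM in the shScramble samples and 71.2, 67.3, 77.4 and 78.5 CPM in the shIER5L samples. All 4 shIER5L samples were below the shScramble samples, and RBL1 fell by 0.37 on the log2 scale (SE 0.06, adjusted p = 0.00107). PRKCA, protein kinase C alpha, had 51.8, 53.4, 59.5 and 59.9 CPM in shScramble and 67.0, 68.4, 67.4 and 69.1 CPM in shIER5L. All shIER5L samples were above the shScramble samples, and PRKCA rose by 0.28 (SE 0.06, adjusted p = 0.0139), a call lost without shScramble replicate 2 (adjusted p = 0.0644). A hairpin heptamer was present in the longest 3′ UTR of 9 of the 40 list genes tested (22.5%, beside 21.95% of all genes with an annotated 3′ UTR). Of these 9, PPP2R3A, RBL1 and PRKCA passed the test, and PPP2R5E, STRN, PTPA, PPP6C, RB1 and CDC25A did not. The 3′ UTR of IER5L holds neither heptamer, and the part of these sites in the changes was not tested. The share of calls among all genes holding a heptamer was not counted. Heptamers and lists were both picked with earlier results of these data known, so no link of calls to sites can be read here.

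**Figure D5:**
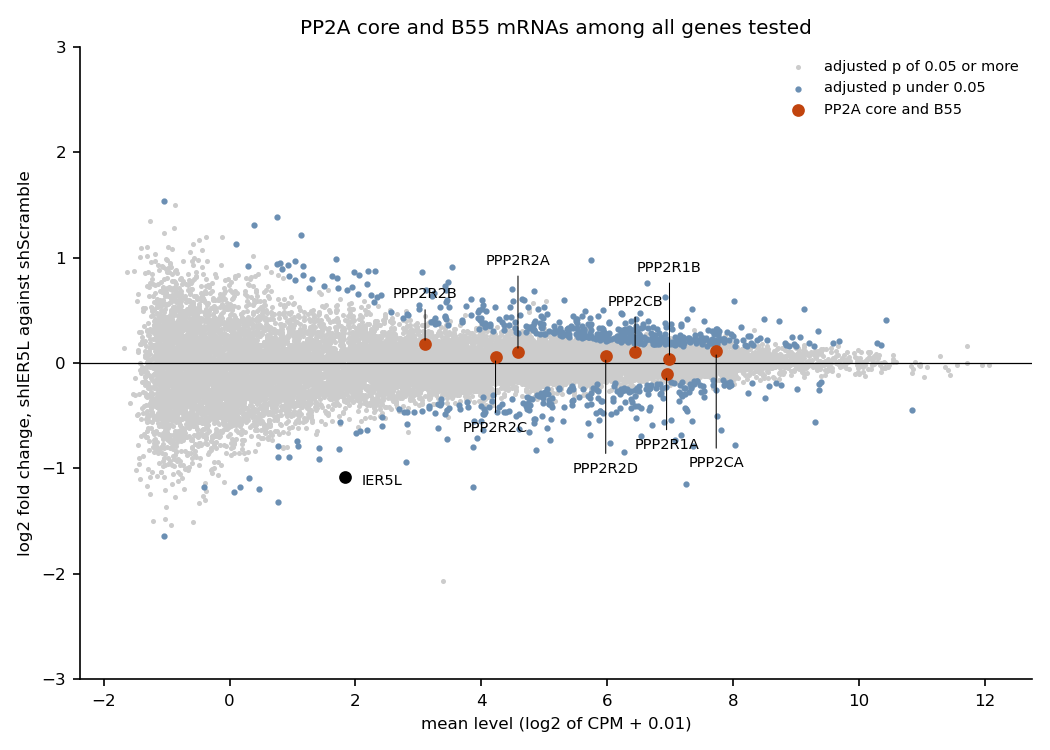
Log2 fold change (shIER5L against shScramble) of the 16959 genes tested, plotted against mean level (log2 of CPM), with genes at an adjusted p under 0.05 in blue, the 8 subunit genes in orange and IER5L in black. The subunit genes lie between -0.10 and 0.18, among the genes that did not pass, and IER5L is at -1.08.

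For 3 subunit genes, the genes with the most similar sample-to-sample pattern were sought by Pearson's r of log2 CPM over the 8 samples after removal of each condition mean, among 9091 genes with a mean of at least 10 CPM. PPP2CA was most like LONP2 (r = 0.995), GOSR1 (0.994) and RCN2 (0.990), and 5.13% of the genes had an r above 0.9 with it. PPP2R1A was most like PISD (0.981), STK36 (0.981) and ZNRF3 (0.980), with 1.02% of genes above 0.9. PPP2R2A was most like MRTFB (0.982), ABI3BP (0.971) and ASB9 (0.970), with 0.22% above 0.9. These values describe 8 libraries that all genes share, with their depth and GC balance, and carry no test.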

How the data were processed

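RNA-seq was analysed for 4 shScramble and 4 shIER5L samples, grouped by their sample records. The authors deposited raw counts per gene, without normalization: per the paper, the table's header and the submitters' processing notes (versions), reads were aligned to hg38 (STAR 2.7.5c), duplicates removed (SAMtools 1.15) and primary alignments counted on exons without strand (featureCounts 2.0.3). Sources differ on the library kit, ribosomal RNA depletion in the paper and poly(A) selection in the sample records.

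From these counts, filterByExpr kept 16959 genes, which were scaled by TMM and tested with the quasi-likelihood test of edgeR 4.0.16 (R 4.3.3), on condition alone, with p adjusted over all of them by Benjamini-Hochberg. A call is an adjusted p under 0.05. Intervals are 95%. The test did not pair samples by replicate number, and whether the numbers mark a pairing is not known. Alternatives were other scalings, filters, tests (DESeq2 1.42.0, limma 3.58.1), a replicate block, halved counts and each sample left out. Added after seeing the data were the GC trend of each sample removed (lowess, span 0.3) and family sums by the transcript with the longest coding sequence. The test was checked on simulated counts. The members and lists were chosen with earlier results of these data known. Genes named are the 8 subunits, and in each list those called, the highest and lowest, the IER genes, MASTL, ENSA and ARPP19. Some items are not reported here. Likeness was limited to PPP2CA, PPP2R1A and PPP2R2A.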

Additional observations from a re-analysis of the deposited data

Results flagged for a closer look

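Of 96 groups of 4 samples examined for a single distant value by Dixon's 95% criterion, 6 held one, and chance gives about 1 in 20. PPP2R1A was at 104.35 CPM in shScramble replicate 1 and between 133.5 and 137.5 CPM in the other shScramble samples. PPP2R1B was at 135.84 CPM in shIER5L replicate 3 and between 125.9 and 126.7 CPM in the others. Among genes of the lists, ARPP19 was at 207.96 CPM in shScramble replicate 2 (others 225.2 to 227.7), PPME1, the C subunit demethylase, at 26.913 CPM in shScramble replicate 1 (others 31.2 to 32.0), and PPP4C at 94.564 CPM in shScramble replicate 3 (others 85.2 to 85.7). In shIER5L replicate 3, PRKCI was at 181.81 CPM (others 167.2 to 169.1).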

How the results depend on the processing

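None of the 8 subunit genes passed the test in any of the 19 other fits. With each sample left out in turn, log2 fold changes ran from 0.07 to 0.16 for PPP2CA, 0.07 to 0.15 for PPP2CB, -0.19 (without shScramble replicate 1) to -0.05 (without shIER5L replicate 3) for PPP2R1A, 0.003 to 0.05 for PPP2R1B, 0.06 to 0.16 for PPP2R2A, 0.13 to 0.23 for PPP2R2B and 0.04 to 0.11 for PPP2R2D, and PPP2R2C ran from -0.021 to 0.11, turning sign without shIER5L replicate 4. The log2 difference in the PPP2CA to PPP2CB ratio ran from -0.007856 to 0.019876, and was -0.003274, -0.005884 and -0.007856 without shScramble replicate 3, shIER5L replicate 3 and shIER5L replicate 4. That of the PPP2R1A to PPP2R1B ratio was -0.14, and ran from -0.25 without shScramble replicate 1 to -0.05 without shIER5L replicate 3. All genes called numbered 666, 1409 with the GC trend removed, and 305 to 756 with a sample left out, with 305 without shScramble replicate 3, 341 without shScramble replicate 2, 358 without shIER5L replicate 3 and 434 without shScramble replicate 4. Among the other regulatory subunits, 1 was called, 2 with total counts, with all genes with a count or with at least 1 CPM in 4 samples, 3 with DESeq2, 4 with the GC trend removed, and 0 to 2 with a sample left out. With a sample left out, calls ran from 0 to 1 among adapters and inhibitors and from 1 to 2 among substrates. With the GC trend removed, 3 substrates were called. The adapter call is IER5L. With the replicate block, 655 genes were called and no subunit gene, and PPP2CA had a log2 fold change of 0.11 (adjusted p = 0.277). The correlations of same-numbered samples were -0.048, 0.098, -0.041 and 0.144, and only replicates 2 and 4 correlated best with their own number. These are not correlations of whole log2 CPM profiles, which were 0.988 to 0.992 between replicates. The causes of these changes were not tested.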
